A study of Mus musculus with 12 samples.

Results

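The NRF2 antioxidant response was described here through 10 genes chosen by name: the transcription factor gene Nfe2l2, its inhibitor Keap1, and the target genes Nqo1, Gclc, Gclm, Hmox1, Txnrd1, Srxn1, Gsr and Osgin1. All 10 were found among the 22557 genes of the deposited table, and all 10 were among the 17380 that were tested, those reaching 10 or more in 3 or more libraries. Bulk RNA sequencing was done on whole livers of age-matched female mice, 3 different mice in each of 4 groups. The groups were Mtdh knockout (KO) mice bearing a Py8119 mammary tumor, wild-type (WT) mice bearing a Py8119 tumor, KO mice without a tumor and WT mice without a tumor. Py8119 is a mouse mammary tumor cell line, and the liver sampled is distant from the mammary gland. Mtdh encodes metadherin, and the labels name the genotype of the host without giving the promoter, strain, age or duration of tumor growth. The design therefore compares KO with WT livers in each tumor state, tumor-bearing with tumor-free livers in each genotype, both differences averaged over the other factor, and the interaction of genotype and tumor.

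NRF2, the protein of Nfe2l2, is a transcription factor that is held at a low level in unstressed cells, because KEAP1 binds it and presents it to a ubiquitin ligase for degradation. Oxidants and electrophiles modify cysteines of KEAP1, NRF2 then accumulates, pairs with a small MAF protein and binds antioxidant response elements (AREs) beside genes for glutathione synthesis, NADPH-dependent reduction and detoxification. Much of this control acts on the NRF2 protein, which was not measured here, so the transcripts of its targets are the usual readout of the pathway in RNA data. In liver the pathway is known for its part in the handling of drugs, bile acids and other electrophiles.

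The core of the ARE, TGACNNNGC, was searched on both strands of the RefSeq promoters of mouse build GRCm38.p6, which run from 250 bases before to 50 after a transcription start. The promoter table matched 7 of the 10 members with 9 promoters, and 4 of these members held the core in 1 promoter each. Of all 32851 promoters in the table, 12.4% held it. A match describes letters in this window, and its absence says nothing about NRF2 binding elsewhere. The windows are shown because they carry the motif by which the pathway is defined. Each gives the core with 10 bases on either side, 5′ to 3′ on the strand of the gene, and the capitals mark the fixed letters of the core, which read GC then GTCA where the core lies on the opposite strand.
Nfe2l2: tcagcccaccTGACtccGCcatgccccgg
Srxn1: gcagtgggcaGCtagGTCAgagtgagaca
Gclm: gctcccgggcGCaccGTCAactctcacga
Txnrd1: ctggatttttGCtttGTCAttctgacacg
The Nfe2l2 window lies at chr2:75704885-75704913 on the minus strand, with the core on the gene's own strand at positions -240 to -232 from the start. The Srxn1 window lies at chr2:152105542-152105570 on the plus strand, with the core 29 to 37 bases past the start. The Gclm window lies at chr3:122245413-122245441 on the plus strand, with the core at -134 to -126. The Txnrd1 window lies at chr10:82859104-82859132 on the plus strand, with the core at -92 to -84 of 1 of its 3 listed starts. The core was not found in the promoter windows of Keap1, Nqo1 and Osgin1.

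Values are a normalized signal, that is, reads per gene divided by the authors' size factor for each library, and differences are log2 fold changes of log2(signal + 1) from 1 limma model over all 12 libraries with p-values adjusted by Benjamini-Hochberg over 17380 genes. Library depth was estimated at 12700000 reads in KO tumor replicate 1, with 14899 genes above 0, and at 25700000 to 43000000 reads in the other 11 libraries, with 17772 to 20365 genes. In KO no-tumor replicate 3, snoRNAs took 4.84% and snRNAs 5.32% of the signal, while no other library had more than 1.23% and 2.05%. Both libraries stood apart, and values without both are given beside the results they moved most. Mtdh checked the labels: its signal was 1063, 380 and 323 in tumor-bearing KO livers against 5290, 3954 and 5702 in tumor-bearing WT livers, and 584, 436 and 627 in tumor-free KO livers against 4330, 5375 and 4973 in tumor-free WT livers. It fell by 3.28 ± 0.35 (SE) on the log2 scale with a tumor (adjusted p = 0.00301) and fell by 3.16 ± 0.35 without one (adjusted p = 0.0046). The call without a tumor missed the threshold without KO no-tumor replicate 2 (adjusted p = 0.0519) or WT no-tumor replicate 2 (adjusted p = 0.0657). Hepatocyte markers such as Alb were high in every library. In whole liver, fewer cells of a type and less RNA per cell cannot be told apart, and this holds for every gene below.

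None of the 10 members passed an adjusted p of 0.05 in any of the 7 comparisons. Of all tested genes, 0.023% passed in tumor-bearing KO against tumor-bearing WT livers, 0.00575% in tumor-free KO against tumor-free WT livers, 0.679% in tumor-bearing against tumor-free WT livers and 0% in tumor-bearing against tumor-free KO livers. The share was 0.0115% for KO against WT averaged over tumor states, 1.06% for tumor against no tumor averaged over genotypes and 0% for the interaction. With calls this rare among all genes, 0 of 10 members is what the background share gives, and a p that misses the threshold does not show that a gene was equal in both groups. At an unadjusted p under 0.05, 1 member passed in tumor-bearing KO against WT livers (Osgin1), 1 in WT livers with against without a tumor (Hmox1), 1 in KO livers with against without a tumor (Nqo1) and 1 in the averaged tumor comparison (Gsr). The shares of all tested genes past that level were 14.4%, 8.67%, 12.7% and 15.1% in these 4 comparisons. No member passed it in tumor-free KO against WT livers, in the averaged genotype comparison or in the interaction, where 1.93%, 10.3% and 4.7% of all tested genes did. Groups that did not overlap were counted too. In tumor-bearing KO against WT livers 0 of 10 members and 17.9% of all tested genes had no overlap, and in KO livers with against without a tumor 0 members and 16.8% of genes. In tumor-free KO against WT livers 1 member and 7.93% of genes had none, and in WT livers with against without a tumor 1 member and 17.5% of genes. For KO against WT over both tumor states it was 0 members and 0.414% of genes, and for tumor against no tumor over both genotypes 0 members and 1.66% of genes.

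**Figure D1:**
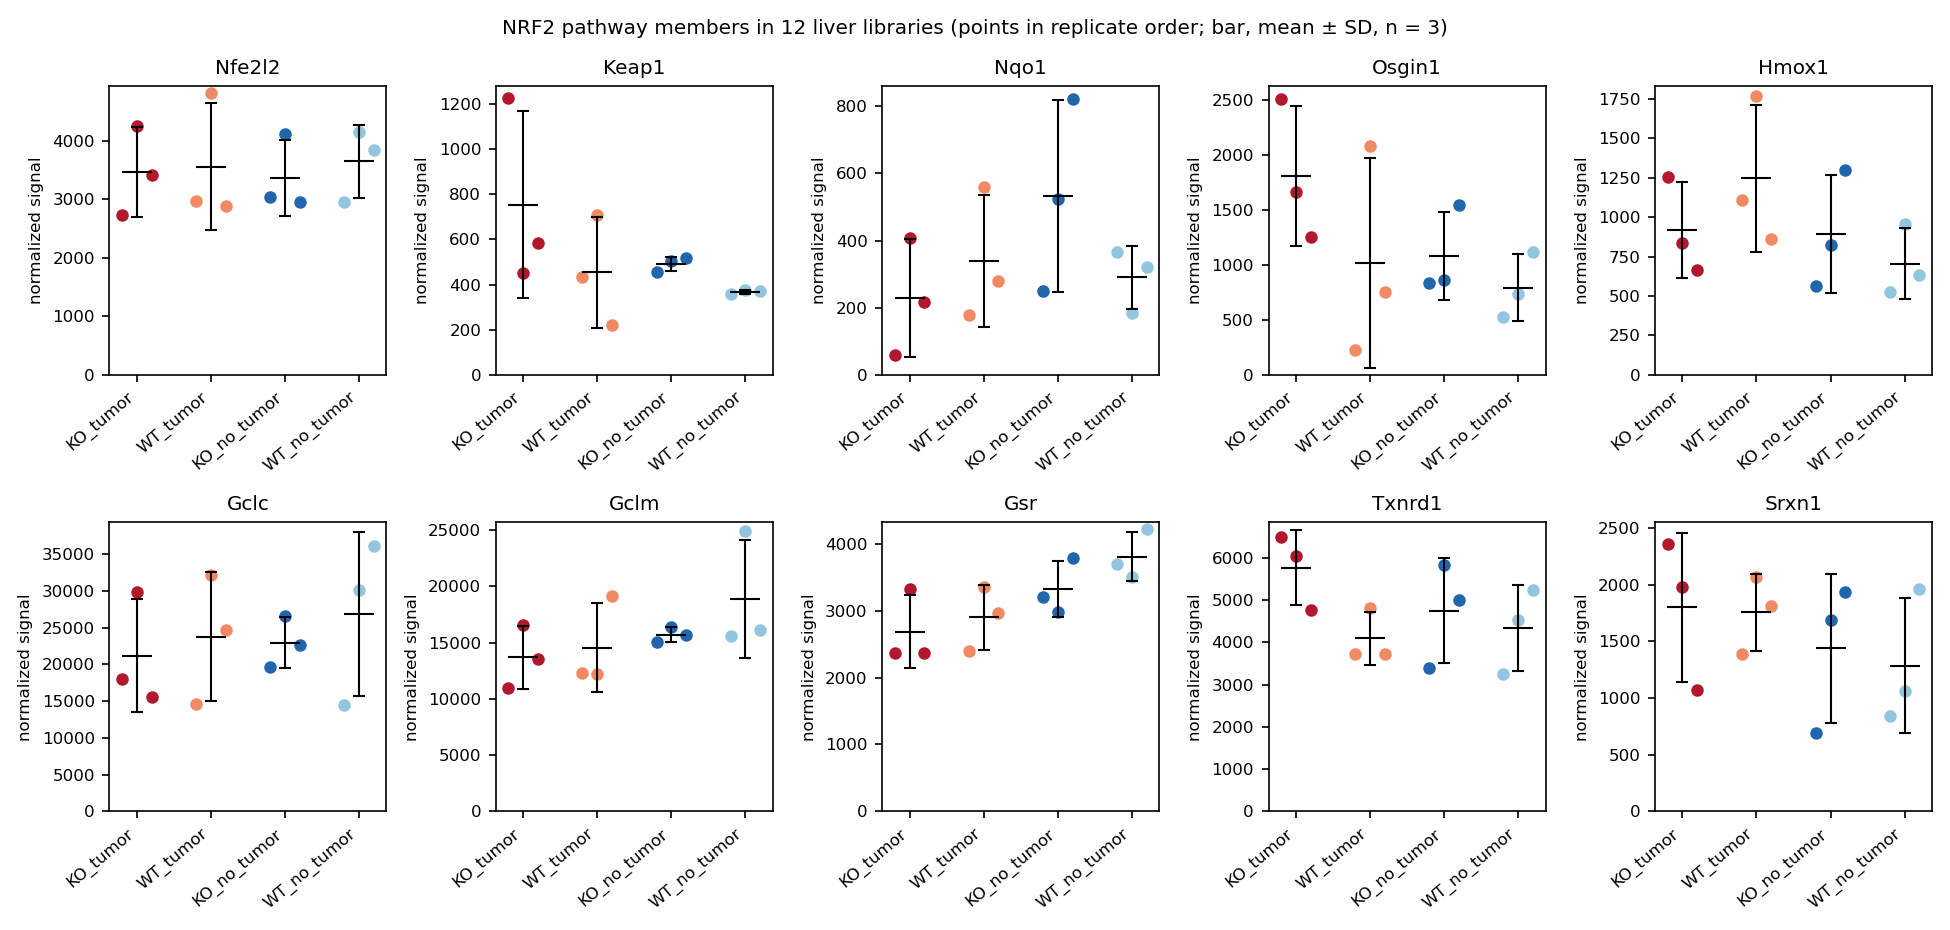
Normalized signal of the 10 members (1 panel each, y axis from 0) in the 4 groups on the x axis, with 1 point per library in replicate order and bars for mean ± SD (n = 3). Groups overlap in nearly all panels; tumor-free KO livers lie above tumor-free WT livers for Keap1, and tumor-bearing WT livers lie below tumor-free WT livers for Gsr.

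Nfe2l2 (ENSMUSG00000015839, chr2:75505857-75534985, minus strand, mm39) encodes NRF2 itself. Its signal was 2732, 4258 and 3416 in tumor-bearing KO livers and 2969, 4819 and 2893 in tumor-bearing WT livers. It was 3037, 4112 and 2953 in tumor-free KO livers and 2956, 4146 and 3848 in tumor-free WT livers. All 4 groups covered the same range, and the highest library was 1.76 times the lowest. The log2 fold change was -0.02 (95% interval -0.54 to 0.50) between KO and WT livers with a tumor and -0.12 (-0.64 to 0.40) without one. It was -0.06 (-0.58 to 0.46) between WT livers with and without a tumor and 0.04 (-0.48 to 0.55) between KO livers with and without one, and every adjusted p was at least 0.893. Averaged over genotypes the tumor difference was -0.01 (-0.38 to 0.35), and its sign turned under quantile normalization.

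Keap1 (ENSMUSG00000003308, chr9:21141026-21150657, minus strand) encodes the substrate adaptor that targets NRF2 for degradation. Its signal was 1228, 453 and 582 in tumor-bearing KO livers and 434, 708 and 220 in tumor-bearing WT livers. It was 455, 503 and 516 in tumor-free KO livers against 359, 375 and 370 in tumor-free WT livers. Without a tumor, every KO liver lay above every WT liver, while with a tumor the groups overlapped and spread widely. Keap1 was the 1 member of 10 with such a gap in this direction without a tumor, where 3.56% of all tested genes had it. Its mean was 491 ± 32.3 in tumor-free KO livers and 368 ± 8.32 in tumor-free WT livers (SD, n = 3 each), a fold of 1.33. The log2 fold change of 0.41 ± 0.40 (SE) did not pass limma's test, whose spread is pooled over all 4 groups (adjusted p = 1). With a tumor it was 0.75 (95% interval -0.11 to 1.61; adjusted p = 0.393), but 0.33 without KO tumor replicate 1 and 0.31 without WT tumor replicate 3, the libraries with the highest and the lowest Keap1 signal of all 12. Averaged over tumor states the difference was 0.58 (-0.02 to 1.19; adjusted p = 0.498). Reads of the overlapping antisense gene model Gm16754, at 0 to 9.46 in the 12 libraries, could not be told apart from Keap1 reads where the counting did not use strand.

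Nqo1 (ENSMUSG00000003849, chr8:108114857-108129838, minus strand) encodes the NAD(P)H-dependent quinone reductase that is widely used as a marker of NRF2 activity. Its signal was 59.2, 409 and 216 in tumor-bearing KO livers and 179, 559 and 280 in tumor-bearing WT livers. It was 250, 524 and 822 in tumor-free KO livers and 365, 185 and 322 in tumor-free WT livers. Over all 12 libraries it varied by a factor of 13.9, the widest of the members, between KO tumor replicate 1 at the low end and KO no-tumor replicate 3 at the high end, which are the libraries that stood apart. Without both, its signal ran from 179 to 559, a factor of 3.12. The means were 228 ± 175 in tumor-bearing KO livers and 532 ± 286 in tumor-free KO livers (SD, n = 3 each), and the groups overlapped. The log2 fold change between them was -1.45 (95% interval -2.81 to -0.08; unadjusted p = 0.0391, adjusted p = 0.379 by limma with Benjamini-Hochberg). It was -0.28 without both of those libraries. Between KO and WT livers the difference was -0.80 (-2.17 to 0.56) with a tumor and 0.77 (-0.60 to 2.13) without one. The interaction, which tests whether these differ, was -1.57 (-3.50 to 0.36; adjusted p = 0.859). Without both libraries that stood apart these values were -0.03, 0.38 and -0.41. In WT livers the tumor difference was 0.12 (-1.24 to 1.49).

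Osgin1 (ENSMUSG00000074063, chr8:120160863-120172995, plus strand) encodes an oxidative stress induced growth inhibitor. Its signal was 2505, 1666 and 1256 in tumor-bearing KO livers and 229, 2079 and 750 in tumor-bearing WT livers. It was 839, 863 and 1543 in tumor-free KO livers and 527, 732 and 1122 in tumor-free WT livers. In tumor-bearing livers 2 of the 3 WT values lay below all KO values and the third lay among them. The fold was 2.44 between tumor-bearing KO and WT livers, with a log2 fold change of 1.29 (95% interval 0.04 to 2.54; unadjusted p = 0.0436, adjusted p = 0.338). This difference was 0.48 without WT tumor replicate 1, which had the lowest Osgin1 signal of all libraries, and 2.06 without WT tumor replicate 2 (adjusted p = 0.0584). When libraries were weighted by their agreement with the model it was 1.71 and passed (adjusted p = 0.0337), the 1 setting in which a member was called. In that setting 1664 of all 17380 tested genes were called in this comparison, so the call is not particular to Osgin1. Without a tumor the difference was 0.46 (-0.79 to 1.70), and averaged over tumor states it was 0.87 (-0.01 to 1.75; adjusted p = 0.489). Tumor-bearing against tumor-free livers differed by 0.74 (-0.50 to 1.99) in KO and by -0.09 (-1.34 to 1.16) in WT mice.

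Hmox1 (ENSMUSG00000005413, chr8:75820249-75827217, plus strand) encodes haem oxygenase 1, which opens the haem ring and releases iron. Its signal was 1255, 833 and 662 in tumor-bearing KO livers and 1110, 1767 and 864 in tumor-bearing WT livers. It was 562, 822 and 1297 in tumor-free KO livers and 525, 957 and 631 in tumor-free WT livers. In WT mice, 2 of the 3 tumor-bearing livers lay above all tumor-free livers. The means were 1247 ± 467 in tumor-bearing and 704 ± 225 in tumor-free WT livers (SD, n = 3 each), a log2 fold change of 0.81 (95% interval 0.04 to 1.57; unadjusted p = 0.0398, adjusted p = 0.543). Leaving out WT tumor replicate 2 gave 0.52. In KO livers the tumor difference was 0.07 (-0.69 to 0.83), and the interaction was -0.74 (-1.81 to 0.34; adjusted p = 0.859), so a difference between the genotypes was not shown. KO against WT livers differed by -0.43 (-1.19 to 0.33) with a tumor and by 0.31 (-0.46 to 1.07) without one.

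Hmox1 is strongly expressed by macrophages that clear red cells, so markers of those cells are given beside it. The summed signal of 10 Kupffer cell and macrophage markers ran from 8813 to 11717 in tumor-bearing WT livers (median 11691) and from 4964 to 10991 in tumor-free WT livers (median 6343). All 10 markers had positive log2 fold changes between these groups, with a median of 0.61, beside 50.4% of all tested genes positive. Of the 10, 0 were called, beside 0.679% of all tested genes, and none was at 0 in any library. In KO mice the sum ran from 8244 to 12953 with a tumor (median 11358) and from 5672 to 10975 without one (median 8322). The sum of 7 erythroid markers was 6315 to 10552 in tumor-bearing WT livers (median 9979) and 2167 to 4266 in tumor-free WT livers (median 2494). All 7 were positive and 1 was called higher, Alas2 (log2 fold change 1.60, adjusted p = 0.0422 by limma). The count of all genes called between these groups, 118, ran from 12 to 205 with 1 library left out. The erythroid sum ran from 2456 to 11915 in tumor-bearing KO livers (median 3537) and from 2469 to 4318 in tumor-free KO livers (median 4011). The neutrophil sum was low, at 352 to 714 in tumor-bearing and 69.7 to 232 in tumor-free WT livers, with S100a8 and S100a9 each at 0 in 3 of the 12 libraries. In KO mice the neutrophil sum ran from 51.8 to 303 with a tumor and from 85.8 to 118 without one. In tumor-bearing KO against WT livers 0 of 5 tested neutrophil markers were positive, beside 42.8% of all tested genes, and 0 were called, beside 0.023%. The part of these cells in the Hmox1 values was not tested.

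**Figure D2:**
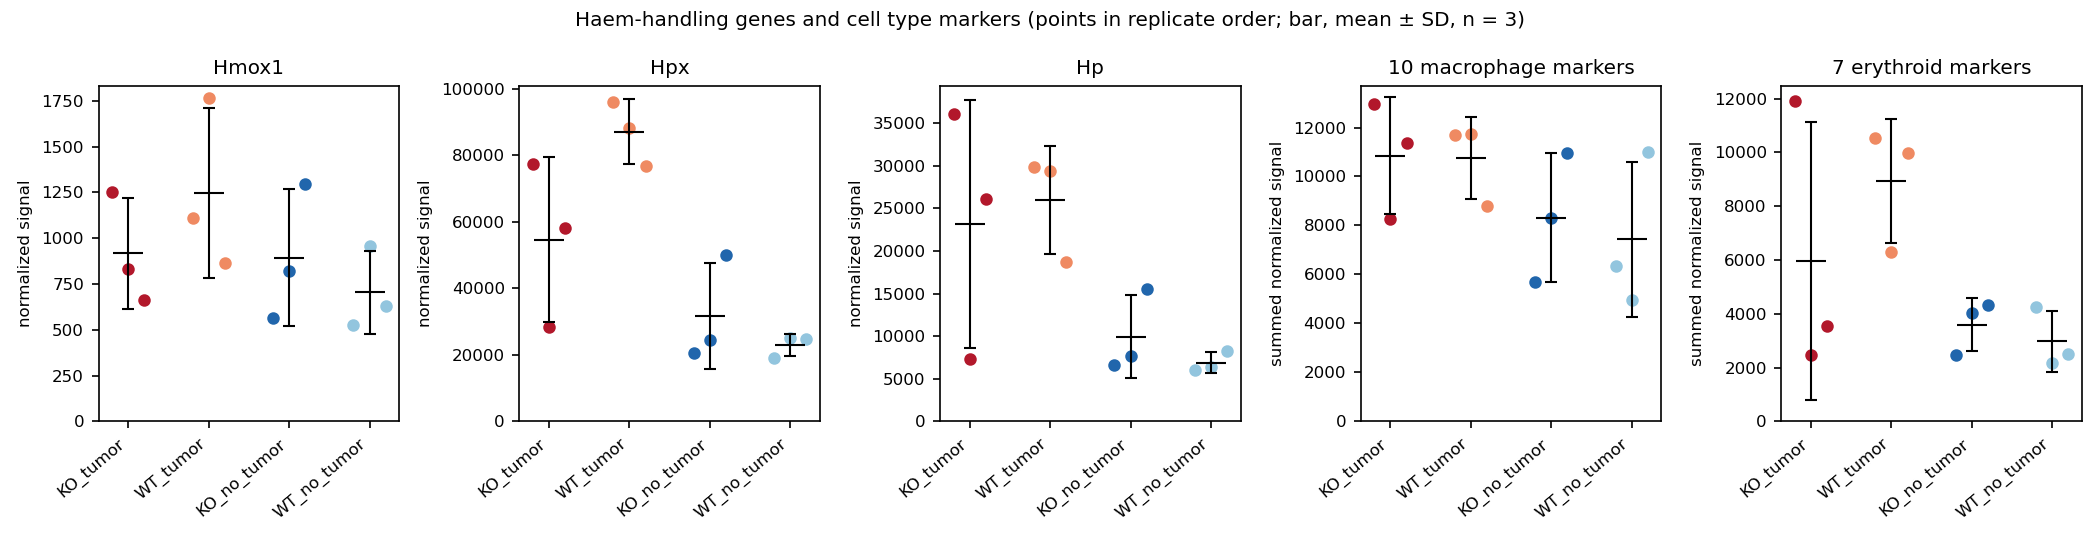
Normalized signal of Hmox1, Hpx and Hp, and the summed signal of 10 macrophage and 7 erythroid markers (y axes from 0), in the 4 groups on the x axis, with 1 point per library and bars for mean ± SD (n = 3). All 3 tumor-bearing WT livers lie above all tumor-free WT livers for Hpx, Hp and the erythroid sum, but not for Hmox1 or the macrophage sum. Between these groups 17.5% of all tested genes had a gap in either direction.

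Glutathione is made in a first, limiting step by glutamate-cysteine ligase, a dimer of a catalytic subunit (Gclc) and a modifier subunit (Gclm), and glutathione reductase (Gsr) returns oxidized glutathione to its reduced form. Gclc (ENSMUSG00000032350, chr9:77661817-77701767, plus strand) had a signal of 18022, 29878 and 15608 in tumor-bearing KO livers and 14553, 32115 and 24649 in tumor-bearing WT livers. It had 19592, 26513 and 22636 in tumor-free KO livers and 14401, 30109 and 36066 in tumor-free WT livers. The groups overlapped throughout, and the 4 pairwise log2 fold changes lay between -0.16 and -0.14 with intervals reaching from -0.95 to 0.65. Gclm (ENSMUSG00000028124, chr3:122039206-122064381, plus strand) had 10997, 16562 and 13529 in tumor-bearing KO livers and 12331, 12233 and 19145 in tumor-bearing WT livers. It had 15051, 16359 and 15709 in tumor-free KO livers and 15621, 24967 and 16133 in tumor-free WT livers. Its tumor difference was -0.37 (95% interval -0.90 to 0.15) in WT and -0.22 (-0.75 to 0.31) in KO mice, and its KO against WT difference was -0.08 (-0.61 to 0.45) with a tumor and -0.23 (-0.76 to 0.29) without one. Both subunits thus had a lower mean in tumor-bearing than in tumor-free livers of each genotype. Their means were also lower in KO than in WT livers of each tumor state, and the groups overlapped in each of these comparisons. The direction was not stable under every scaling: quantile normalization turned the tumor difference in KO mice to 0.08 for Gclc and 0.02 for Gclm, and the KO against WT difference with a tumor to 0.0072 for Gclm. Gene models that overlap Gclm and Gsr had a signal of at most 125 and 36.8 in any library.

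Gsr (ENSMUSG00000031584, chr8:34142551-34188191, plus strand) had a signal of 2367, 3322 and 2373 in tumor-bearing KO livers and 2390, 3348 and 2963 in tumor-bearing WT livers. It had 3210, 2980 and 3788 in tumor-free KO livers and 3702, 3509 and 4213 in tumor-free WT livers. All 3 tumor-bearing WT livers lay below all 3 tumor-free WT livers, the 1 member of 10 with such a gap, where 8.05% of all tested genes had one in this direction. In KO mice the groups overlapped through tumor replicate 2. The means were 2900 ± 482 in tumor-bearing and 3808 ± 364 in tumor-free WT livers (SD, n = 3 each), a fold of 0.757 and a log2 fold change of -0.40 (95% interval -0.82 to 0.01; adjusted p = 0.606). In KO mice the tumor difference was -0.32 (-0.74 to 0.10; adjusted p = 0.468). Averaged over genotypes it was -0.36 (-0.66 to -0.07; unadjusted p = 0.0199, adjusted p = 0.229 by limma with Benjamini-Hochberg), with 4 of 6 tumor-bearing livers below all 6 tumor-free livers. This was the lowest adjusted p of any member in any comparison. KO against WT livers differed by -0.11 (-0.53 to 0.30) with a tumor and by -0.20 (-0.61 to 0.22) without one.

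Txnrd1 and Srxn1 serve the thioredoxin side of the response: thioredoxin reductase 1 reduces thioredoxin with NADPH, and sulfiredoxin 1 repairs peroxiredoxins whose active cysteine was over-oxidized. Txnrd1 (ENSMUSG00000020250, chr10:82669785-82733546, plus strand) had a signal of 6500, 6043 and 4773 in tumor-bearing KO livers and 3734, 4824 and 3727 in tumor-bearing WT livers. It had 3393, 5841 and 5008 in tumor-free KO livers and 3243, 4524 and 5245 in tumor-free WT livers. With a tumor, 2 of the 3 KO livers lay above all WT livers and the third lay just below the highest WT value. The means there were 5772 ± 894 in KO and 4095 ± 631 in WT livers (SD, n = 3 each), a log2 fold change of 0.49 (95% interval -0.02 to 1.0; unadjusted p = 0.0566, adjusted p = 0.358). It was 0.40 to 0.62 when each library in turn was left out. Without a tumor the difference was 0.12 (-0.39 to 0.63), and the interaction was 0.37 (-0.35 to 1.09; adjusted p = 0.859). Txnrd1 overlaps the gene Eid3 on the same strand, which had a signal of 9.86 to 51.3.

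Srxn1 (ENSMUSG00000032802, chr2:151947436-151953296, plus strand) had a signal of 2355, 1976 and 1072 in tumor-bearing KO livers and 1390, 2066 and 1812 in tumor-bearing WT livers. It had 694, 1692 and 1931 in tumor-free KO livers and 839, 1059 and 1959 in tumor-free WT livers. In KO mice 2 of the 3 tumor-free livers lay within the tumor-bearing range, and in WT mice 1 of the 3 did. The tumor difference was 0.38 (95% interval -0.48 to 1.24) in KO and 0.53 (-0.34 to 1.39) in WT mice, and 0.45 (-0.16 to 1.06; adjusted p = 0.473) averaged over genotypes. KO against WT livers differed by -0.02 (-0.88 to 0.84) with a tumor and by 0.13 (-0.74 to 0.99) without one.

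**Figure D3:**
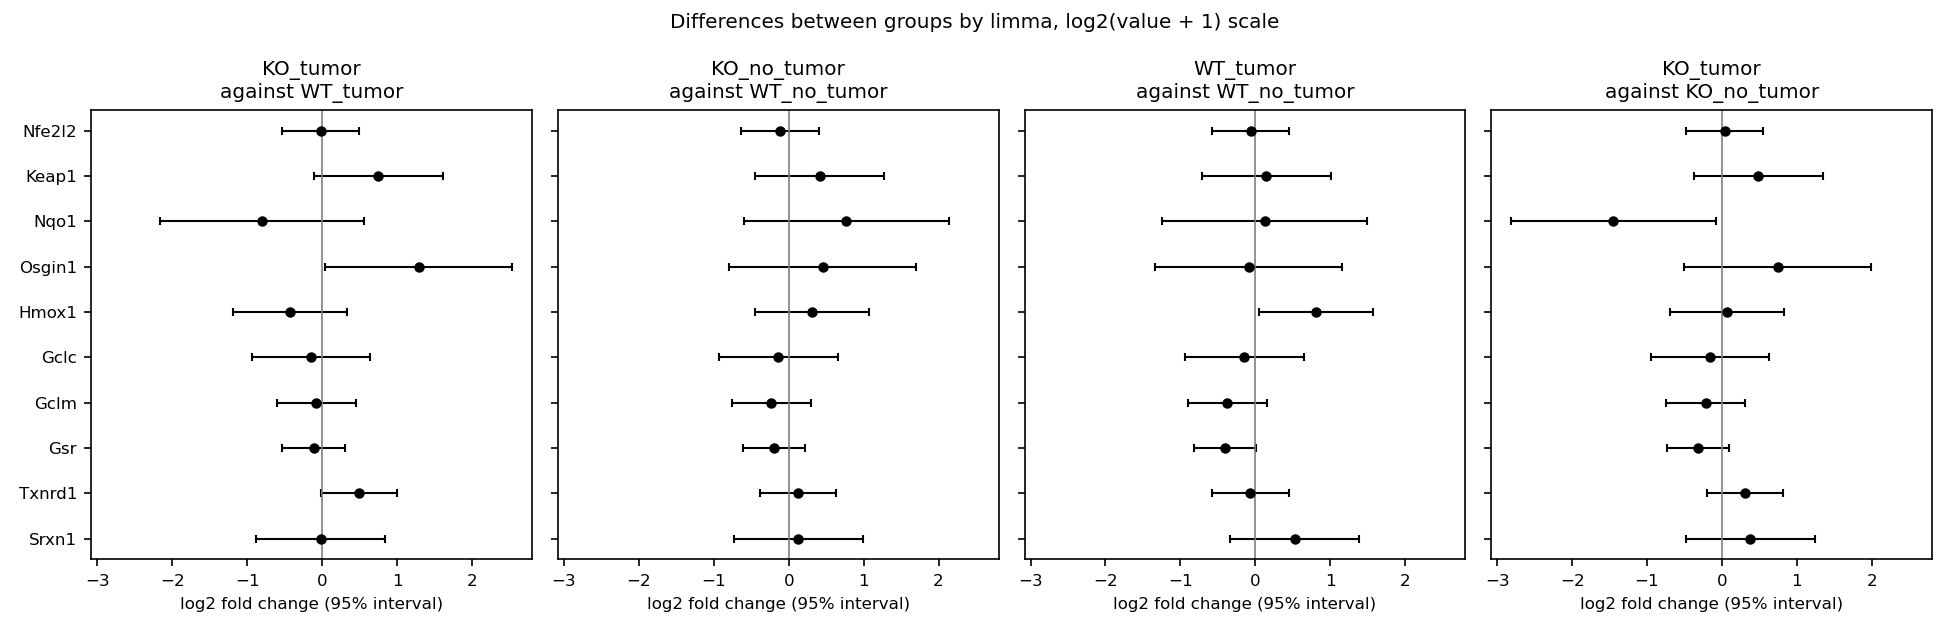
Log2 fold changes of the 10 members with 95% intervals (x axis; y axis, genes) in the 4 pairwise comparisons, on the log2(signal + 1) scale. The intervals for Osgin1 between tumor-bearing KO and WT livers, Hmox1 between WT livers with and without a tumor and Nqo1 between KO livers with and without a tumor lie to one side of 0 before adjustment; the other intervals reach 0.

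The members did not share a direction in any comparison. In tumor-bearing KO against WT livers 3 of 10 log2 fold changes were positive, with a median of -0.05 beside -0.12 for all tested genes. In tumor-free KO against WT livers 6 were positive, with a median of 0.12 beside -0.01. In WT livers with against without a tumor 4 were positive (median -0.06, all genes 0.00), and in KO livers 6 were (median 0.05, all genes -0.08). Averaged over tumor states, KO against WT had 4 positive members and a median of -0.04, and averaged over genotypes the tumor difference had 5 and a median of 0.05. Keap1, Hmox1 and Srxn1 had positive tumor differences in both genotypes, and Gclc, Gclm and Gsr had negative ones in both, none of them called. Under quantile normalization those of Gclc and Gclm in KO mice were positive, and with library weights those of Hmox1 and Srxn1 in KO mice were negative. With 1 library left out, Keap1 in WT mice reached -0.25, and Hmox1 and Srxn1 in KO mice reached -0.22 and -0.081. Gclc then reached 0.17 in WT and 0.029 in KO mice. Quantile normalization gave 5, 6, 6 and 8 positive members in the 4 pairwise comparisons in the order above. The interaction had 6 positive members with a median of 0.09 beside -0.09 for all tested genes, ran from -1.57 for Nqo1 (-0.41 without both libraries that stood apart) to 0.83 for Osgin1, and had a lowest adjusted p of 0.859. These comparisons share samples, so their values are set side by side and not counted as separate support.

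The spread over libraries differed between members. The SD of log2 signal over the 12 libraries was 0.98 for Nqo1 and 0.94 for Osgin1, at the 63.6 and 62.5 percentiles of all tested genes. It was 0.28 for Nfe2l2 and 0.28 for Gsr, both near the 11 percentile. Gclm at 0.32 and Txnrd1 at 0.33 were also steady, while Gclc at 0.46, Hmox1 at 0.53, Srxn1 at 0.57 and Keap1 at 0.60 lay between. The transcript of the regulator itself was the steadiest of the set together with Gsr. Nqo1 and Osgin1 varied most, and their order rested on the libraries that stood apart: over the other 10 libraries the SD was 0.89 for Osgin1, which ran from 229 to 2079, and 0.58 for Nqo1, close to 0.57 for Srxn1.

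**Figure D4:**
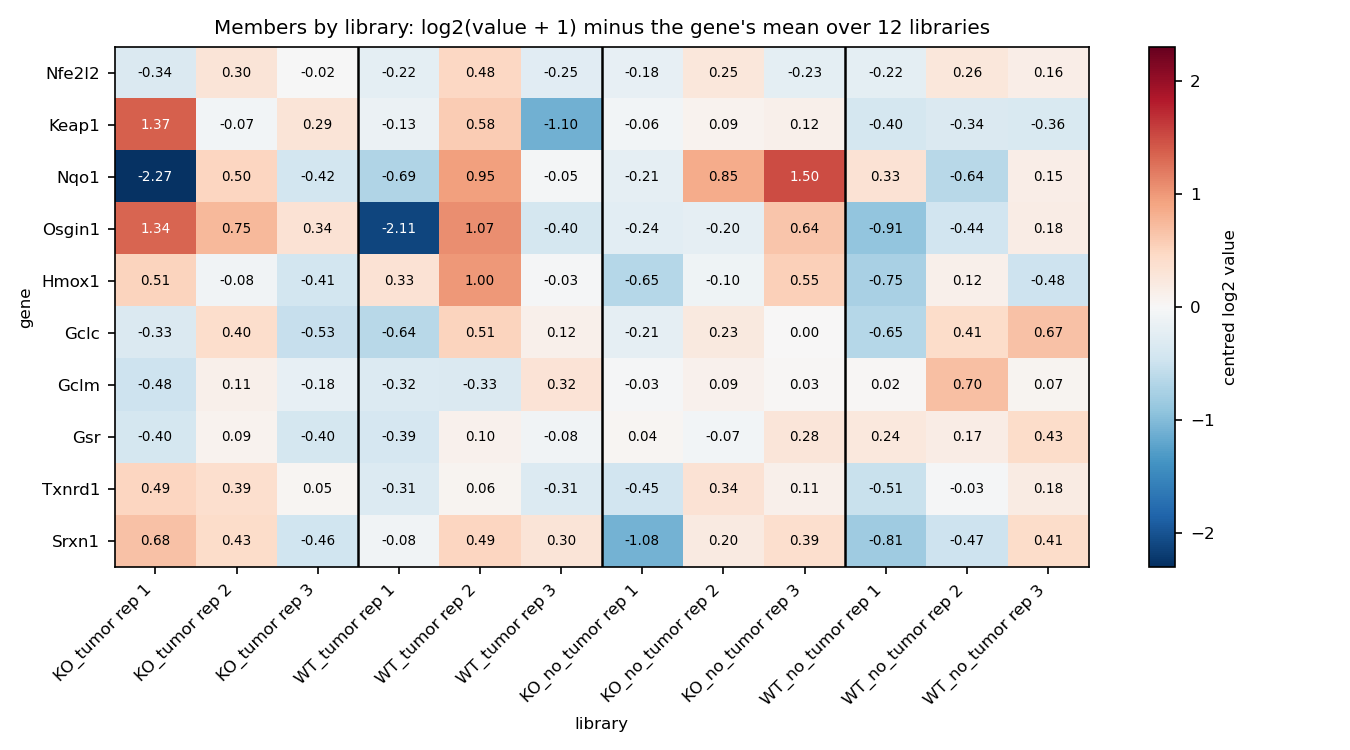
Log2(signal + 1) of each member (rows) minus its mean over the 12 libraries, by library (columns), with the value printed in each cell and the color scale in log2 units. KO tumor replicate 1 holds both the lowest Nqo1 value, at -2.27, and the highest Keap1 and Osgin1 values, at 1.37 and 1.34.

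The members' values relative to their own means were of mixed sign in every liver, but to different degrees. Above their mean lay 9 of 10 members in WT tumor replicate 2 and in KO no-tumor replicate 3, and 8 in KO tumor replicate 2 and WT no-tumor replicate 3. Below it lay 9 of 10 in WT tumor replicate 1 and KO no-tumor replicate 1, while KO tumor replicate 1 and WT no-tumor replicate 2 had 5 on each side. KO tumor replicate 1, the library of lowest depth, had the highest signal of all 12 for Keap1, Txnrd1, Srxn1 and Osgin1 and the lowest for Nfe2l2, Nqo1, Gclm and Gsr. Among the other libraries, WT tumor replicate 2 was highest for Nfe2l2 and Hmox1, and the median of its 10 centred log2 values was 0.50. WT no-tumor replicate 1 was lowest for Gclc, Hmox1 and Txnrd1, with a median of -0.46. KO no-tumor replicate 3 was highest for Nqo1, at 1.5 above the gene's mean on the log2 scale, and WT tumor replicate 1 was lowest for Osgin1, at -2.11. The part of depth in these extremes was not tested.

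The members also differed widely in level. Per kilobase of exon, the mean signal in tumor-free WT livers was 7132 ± 2972 for Gclc, 3005 ± 835 for Gclm, 1383 ± 132 for Gsr, 961 ± 163 for Nfe2l2 and 612 ± 143 for Txnrd1 (SD, n = 3). Below these came Srxn1 at 456 ± 211, Hmox1 at 402 ± 128, Osgin1 at 297 ± 113, Nqo1 at 187 ± 60.4 and Keap1 at 78.4 ± 1.77. The catalytic subunit of glutathione synthesis thus led in level and the inhibitor of NRF2 was last. The steps between Txnrd1, Srxn1, Hmox1, Osgin1 and Nqo1 were each smaller than the summed SDs of the neighbors, and the other steps were larger. Exon length was the union of all exons of a gene in GENCODE M21, an annotation of build GRCm38, while the submitters name build mm39. A union over all transcripts can exceed the transcript expressed in liver, and its part in this order was not tested.

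The pathway around the members was followed through 7 lists with 72 other genes, of which 70 were tested. The lists were chosen with earlier results of these data known, so their counts beside all tested genes are descriptive and not an independent test. In tumor-bearing KO against WT livers 55 of the 70 had a positive log2 fold change, with a median of 0.44 beside -0.12 for all tested genes, of which 42.8% were positive. Of the 70, 0 passed the adjusted test and 24 had an unadjusted p under 0.05, beside 14.4% of all tested genes. In tumor-free KO against WT livers 53 were positive, beside 49.0% of all tested genes, with a median of 0.14 beside -0.01; 0 passed and 1 had an unadjusted p under 0.05, beside 1.93%. Averaged over tumor states 56 were positive, beside 43.3% of all tested genes, with a median of 0.28 beside -0.08; 0 passed and 19 had an unadjusted p under 0.05, beside 10.3%. Without both libraries that stood apart, the medians were 0.37 with a tumor, 0.02 without one and 0.16 averaged, and the positive counts were 56, 37 and 52. With library weights 15 of the 70 were called higher and 2 lower in tumor-bearing KO against WT livers, a setting in which 1664 of all tested genes were called. The medians of the 10 members in these comparisons were -0.05, 0.12 and -0.04.

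Some genes of these lists, Cyp2a5 among them, are known to be expressed most by hepatocytes around the central vein, so 4 markers of those cells are given beside the lists. All 4 had positive log2 fold changes in KO against WT livers, with a median of 0.52 with a tumor, 0.33 without one and 0.44 averaged. Of all tested genes 42.8%, 49.0% and 43.3% were positive in these comparisons. None of the 4 was called, beside 0.023%, 0.00575% and 0.0115% of all tested genes, and none was at 0 in any library. Cyp2e1, at 51761 to 150101 over the 12 libraries, made up most of their sum, and Glul was next at 10021 to 26455. The summed signal of the 4 markers ran from 100800 to 184157 in tumor-bearing KO livers (median 108577) and from 74664 to 103483 in tumor-bearing WT livers (median 82435). It ran from 114983 to 133750 in tumor-free KO livers (median 126421) and from 76042 to 122356 in tumor-free WT livers (median 118849). The part of these cells in the list values was not tested.

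The lists for NADPH supply and for glutathione synthesis and transfer had the largest medians in KO against WT livers averaged over tumor states. For NADPH supply all 6 tested genes were positive, with a median of 0.62, and 0 were called. Me1, malic enzyme, which makes cytosolic NADPH, had a signal of 44877, 82497 and 45145 in tumor-bearing KO livers against 9838, 16315 and 9384 in tumor-bearing WT livers. It had 48758, 60978 and 50295 in tumor-free KO livers and 60110, 19270 and 60930 in tumor-free WT livers. With a tumor all KO livers lay above all WT livers, where 17.9% of all tested genes had no overlap in either direction. Without a tumor the groups overlapped, and the averaged log2 fold change was 1.31 ± 0.29 (SE, adjusted p = 0.342 by limma). Tkt, transketolase of the pentose phosphate pathway, had 0.60 ± 0.21 (adjusted p = 0.401), and Taldo1, transaldolase, had 0.48 ± 0.21 (adjusted p = 0.465). Mean Taldo1 signal was 824 in KO and 453 in WT livers with a tumor, and 495 and 470 without one. For Tkt these means were 4023 and 2228 with a tumor, and 3190 and 2714 without one.

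For glutathione synthesis and transfer, 11 of 12 tested genes were positive in the same comparison, with a median of 0.58, and 0 were called. Gstm1, a glutathione transferase whose near-identical relatives make its count uncertain, had 45452, 30565 and 18669 in tumor-bearing KO livers and 5255, 27816 and 7824 in tumor-bearing WT livers, and these overlapped. Its averaged log2 fold change was 0.95 ± 0.37 (SE; adjusted p = 0.425). Gsta3, of the same enzyme class, had 0.50 ± 0.16 (adjusted p = 0.395). Slc7a11, the cystine importer that supplies glutathione synthesis, was the 1 negative gene on average, at -0.81 ± 0.35 (adjusted p = 0.47), and its sign differed between tumor states. Its signal was 27.1, 50.1 and 25.6 in tumor-bearing KO livers against 133, 120 and 136 in tumor-bearing WT livers. This was a log2 fold change of -1.96 with no overlap, where 17.9% of all tested genes had none. Without a tumor its signal was 87.2, 87.1 and 109 in KO livers and 73.1, 96.7 and 58.4 in WT livers. This was a log2 fold change of 0.33 with overlap.

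Smaller medians were found for the other lists in that comparison. Detoxification and export had 12 of 13 positive with a median of 0.42, among them Ephx1, microsomal epoxide hydrolase, at 0.56 ± 0.18, Abcc3, an export pump, at 0.44 ± 0.16 and Cyp2a5 at 1.01 ± 0.40 (SE). Thioredoxins and peroxiredoxins had 8 of 11 positive with a median of 0.21, among them Prdx6 at 0.44 ± 0.15, Prdx5 at 0.83 ± 0.30 and Txnrd2, the mitochondrial thioredoxin reductase, at 0.41 ± 0.22, which was 1.05 with a tumor and -0.23 without one. Partners and regulators of NRF2 had 7 of 10 positive with a median of 0.22, among them the small MAF genes Mafk at 0.60 ± 0.25 and Mafg at 0.41 ± 0.19 and the autophagy receptor Sqstm1, which binds KEAP1, at 0.45 ± 0.20. Haem breakdown and iron had 7 of 10 positive with a median of 0.18, with the ferritin chains Fth1 at 1.06 ± 0.25 and Ftl1 at 0.86 ± 0.35 and biliverdin reductase B (Blvrb) at 0.59 ± 0.23. Superoxide and peroxide removal had 5 of 8 positive with a median of 0.12, with Sod1 at 0.79 ± 0.22, Gpx1 at 0.56 ± 0.28 and Gpx3 at -0.94 ± 0.32. All of these had adjusted p-values of at least 0.342 by limma with Benjamini-Hochberg, and ferritin reads may be shared with processed copies. Some averaged differences lay mostly in tumor-bearing livers, and others in both tumor states. Mean Gpx3 signal was 111 in KO and 421 in WT livers with a tumor, and 91.99 and 90.4 without one. For Ephx1 these means were 7802 and 3898 with a tumor, and 5526 and 5220 without one. For Abcc3 they were 6430 and 4841 with a tumor, and 6026 and 4339 without one. Without both libraries that stood apart the averaged values were smaller and still positive, at 0.39 for Ftl1, 0.71 for Fth1, 0.27 for Gpx1, 0.21 for Mafg, 0.29 for Abcc3, 0.29 for Prdx6, 0.64 for Gstm1 and 0.83 for Cyp2a5.

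Fth1, which stores iron, had 25855, 12977 and 13072 in tumor-bearing KO livers and 5164, 8535 and 6081 in tumor-bearing WT livers. It had 8399, 9335 and 19681 in tumor-free KO livers and 8338, 4705 and 7767 in tumor-free WT livers. In both tumor states every KO liver lay above every WT liver. A gap in either direction was found for 17.9% of all tested genes with a tumor and for 7.93% without one. Without a tumor the lowest KO value was 8399 and the highest WT value 8338. KO tumor replicate 1 and KO no-tumor replicate 3, which stood apart, held the highest values.

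**Figure D5:**
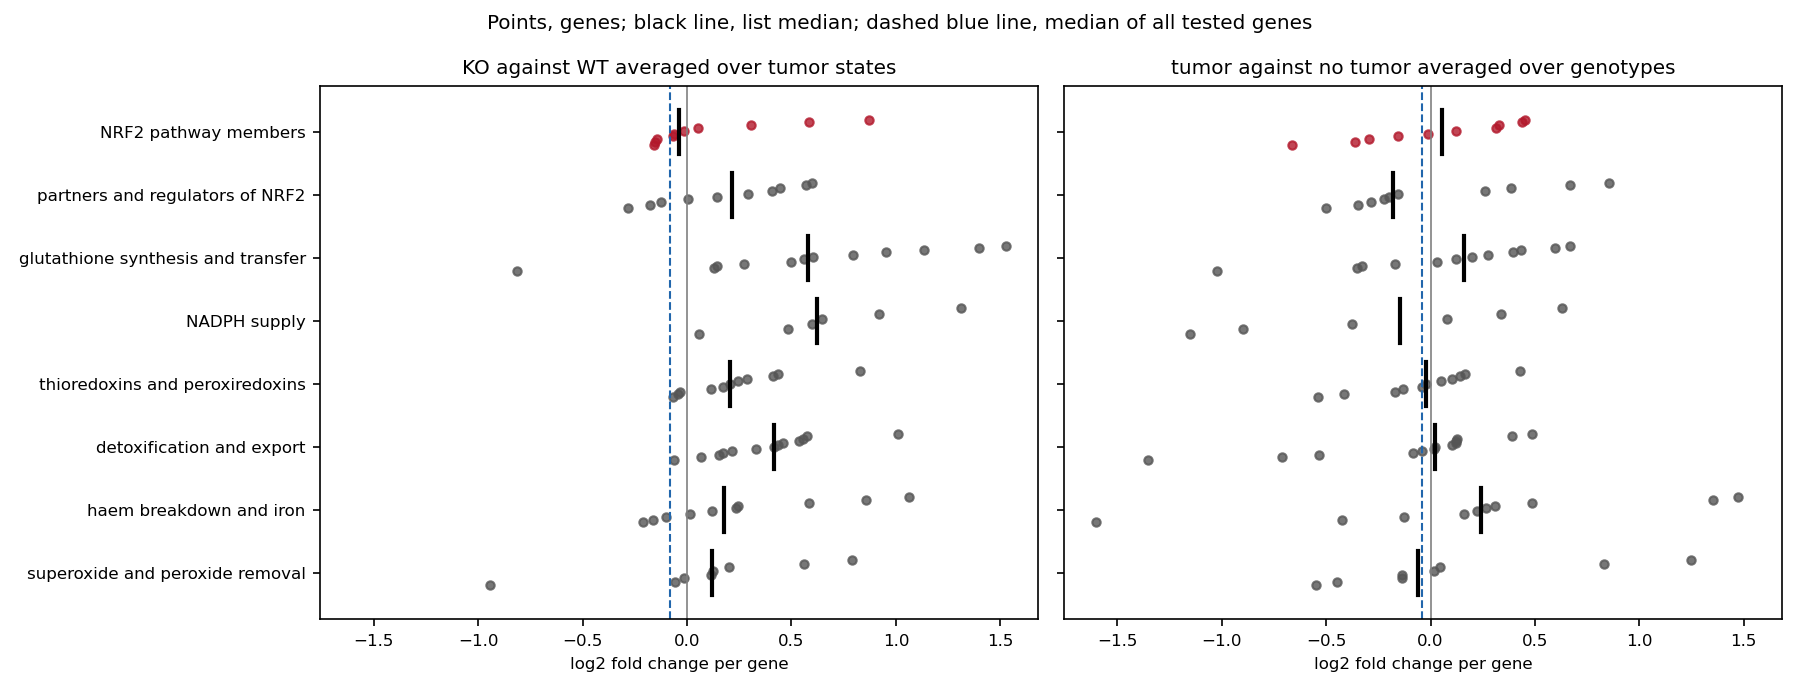
Log2 fold changes of the 10 members (red) and of the genes of 7 pathway lists (grey), 1 point per gene on the x axis and 1 list per row, for KO against WT averaged over tumor states (left) and tumor against no tumor averaged over genotypes (right); black lines mark list medians and the dashed line the median of all tested genes. In the left panel all 7 list medians lie above that of the members at -0.04; in the right panel the medians lie between -0.18 and 0.24.

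For tumor-bearing against tumor-free livers averaged over genotypes, 39 of the 70 list genes were positive with a median of 0.04 beside -0.04 for all tested genes, and 1 was called higher, where 1.06% of all tested genes were called in either direction. Within WT mice 24 of 70 were positive with a median of -0.17 beside 0.00, and 2 were called higher, beside 0.679% of all tested genes called; within KO mice 45 were positive with a median of 0.24 beside -0.08, and 0 were called, beside 0% of all tested genes. The averaged values depended on the scaling and weighting. With library weights 29 were positive with a median of -0.08. In that setting 5 were called higher and 4 lower, beside 856 of 17380 tested genes called. With quantile normalization 44 were positive with a median of 0.09, and 3 were called higher, beside 233 of 17380 tested genes called. The genes called in the unweighted model were Hpx and Gpx3. Hpx, hemopexin, the plasma protein that binds free haem, rose to 96086, 88117 and 76708 in tumor-bearing WT livers, against 19032, 24983 and 24751 in tumor-free WT livers (log2 fold change 1.93 ± 0.38 SE, adjusted p = 0.0356). It had 77418, 28344 and 58012 in tumor-bearing KO livers and 20588, 24536 and 49924 in tumor-free KO livers, and its averaged tumor difference was 1.35 ± 0.27 (adjusted p = 0.0305). That averaged call missed the threshold without KO tumor replicate 3, WT tumor replicate 1 or 3, KO no-tumor replicate 1 or 2, or any of the 3 tumor-free WT libraries (adjusted p between 0.0513 and 0.0988). The call in WT mice missed the threshold when any 1 of the 6 WT libraries was left out, with adjusted p between 0.0682 and 0.18. Hpx is also an acute phase protein.

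Gpx3, the secreted glutathione peroxidase, rose to 581, 316 and 365 in tumor-bearing WT livers, against 58.7, 109 and 103 in tumor-free WT livers (log2 fold change 2.21 ± 0.45 SE, adjusted p = 0.0418 by limma). It had 138, 75.4 and 120 in tumor-bearing KO livers and 68.0, 132 and 76.3 in tumor-free KO livers, which overlapped. The call missed the threshold without any 1 of the 6 WT libraries, KO no-tumor replicate 1, KO no-tumor replicate 3 or KO tumor replicate 3 (adjusted p between 0.053 and 0.259). Other genes with low unadjusted p in the averaged tumor comparison were not called. They included Hp, haptoglobin, at 1.47 ± 0.33 (adjusted p = 0.0517, and 0.0423 without both libraries that stood apart). Sod3, extracellular superoxide dismutase, had 0.83 ± 0.19 (adjusted p = 0.0511). Alas1, the first enzyme of haem synthesis, had -1.60 ± 0.42 (adjusted p = 0.0861). Sod2, mitochondrial superoxide dismutase, had -0.45 ± 0.13 (adjusted p = 0.123), with all 6 tumor-bearing livers below all 6 tumor-free livers, a gap in either direction that 1.66% of tested genes had. Me1 had -0.90 ± 0.29 and Cyp2a5 -1.35 ± 0.40, with adjusted p of 0.155 and 0.125. Without both libraries that stood apart Cyp2a5 had -0.85. Among regulators of NRF2, Btrc had 0.86 ± 0.28, Mafk 0.67 ± 0.25 and Gsk3b -0.35 ± 0.15. Abcc2 had -0.71 ± 0.23, Ces2g 0.49 ± 0.16, Gss 0.59 ± 0.24 and Idh1 -0.38 ± 0.14. Txn1 had -0.54 ± 0.19 and Glrx -0.41 ± 0.16. Mgst1 at -0.33 ± 0.17, Gstm1 at 0.67 ± 0.37, G6pdx at -1.15 ± 0.55 and Prdx4 at 0.43 ± 0.23 had unadjusted p of at least 0.0533. The genes from Btrc on had adjusted p of at least 0.154 by limma.

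The genes whose pattern over the 12 libraries was nearest to the 3 most variable members were found by the root-mean-square (RMS) difference of centred log2 signal among 10889 protein-coding genes. Nqo1, whose own RMS about its mean was 0.94, was nearest to Cox10 and Nxt1, each at 0.39, and Trim21 at 0.42. The signal of Cox10 ran from 14.8 to 179 and that of Nxt1 from 12.3 to 196, so both came near the filter of 10. Osgin1, with 0.90, was nearest to Hat1 at 0.43, Gstm1 at 0.45 and Gstm6 at 0.46. Keap1, with 0.57, was nearest to Tfip11 at 0.13, Ppa1 at 0.19 and Psmb4 at 0.20. None of the other 9 members was among the 3 nearest genes of any of these members. Nqo1 had its lowest and highest signal in the libraries that stood apart. Osgin1 and Keap1 had their highest in KO tumor replicate 1, which is among those libraries. The part of those libraries in the likeness was not tested.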

How the data were processed

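Per the labels' protocols, RNA came from snap-frozen, powdered whole liver, ribosomal RNA was removed and Illumina libraries were sequenced. The deposited values are a normalized signal per gene and library that the authors made by DESeq2 size-factor scaling, as the table's name states. STAR 2.7.8a, Partek, DESeq2 and build mm39 are named in the submitters' processing notes; which program counted reads, with which annotation and strand setting, is not given in the sources used here. Values up to 20 reads were not nearly all whole multiples of 1 read, so no count model was used. Depth was estimated from the step of low values. Genes with at least 10 in at least 3 libraries were tested on log2(signal + 1), a scale that understates changes of low genes, with limma 3.58.1 in R 4.3.3 (lmFit, contrasts, eBayes with trend), two-sided, with a mean per group over all 12 libraries and Benjamini-Hochberg adjustment over 17380 genes. Tables and figures were made with Python 3.11.15, and the fit was tested on simulated data with changes placed in tumor-bearing WT livers. Against tumor-free WT livers it recovered 5 of 50 genes changed by 1 log2 unit and 25 of 50 changed by 2, with 5 false calls. Changes of 1 log2 unit would thus mostly be missed. The gene ends in the table lie 1 base past those given here. Members, the 7 lists and the markers were chosen with earlier results of these data known. Named pathway genes were those called in any comparison and, per list, the 3 with the lowest p in each averaged comparison. Likeness was computed over genes with a mean of at least 50. Alternatives covered the pseudocount, filter, scaling, variance model, library weights, replicate block, fits of single comparisons and libraries left out. Leaving out libraries and re-scaling for the pathway lists was chosen after seeing the data. The marker Tf was not analysed here. The values of 1 single marker are not reported here.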

Additional observations from a re-analysis of the deposited data

How the results depend on the processing

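For the members, 0 of 10 were called under every alternative run, each library left out in turn included, except 1 (Osgin1) with library weights in tumor-bearing KO against WT livers. The count of all called genes in that comparison, 4, became 17 with a pseudocount of 10, 16 without a filter, 11 with quantile normalization, 9 with robust variance, 1664 with library weights, 13 with the replicate block, 0 fitted alone and 9 without both libraries that stood apart. In tumor-free KO against WT livers 1 became 2 with weights. In WT livers with against without a tumor 118 became 510 with weights and 212 without both libraries. In KO livers with against without a tumor 0 became 14 with weights and 1 fitted alone. For KO against WT averaged, 2 became 1 over protein-coding genes and 139 with weights, for tumor averaged 185 became 856 with weights, and for the interaction 0 became 1 with weights. Leaving out 1 library gave 2 to 210 genes in tumor-bearing KO against WT (210 without WT tumor replicate 2), 0 to 1 in tumor-free KO against WT, 12 to 205 in WT with against without a tumor, 0 to 1 in KO, 2 to 15 for KO against WT averaged, 47 to 361 for tumor averaged and 0 to 1 for the interaction. The cause was not tested. Quantile normalization moved the median of all genes in tumor-bearing KO against WT from -0.12 to 0.00. Pairing by replicate number was not seen, as 0 of 18 same-numbered pairs correlated above 0.1, and 3 of 12 libraries matched their own number best. With 3 libraries per group these correlations cannot exclude pairing. The deposited column names number the tumor-free KO livers 1, 3 and 4. By those numbers 1 of 15 pairs correlated above 0.1, at 0.146, the highest of all pairs between groups. The replicate block used the replicate numbers, and a block by column numbers was not run. With the block Gpx3 in WT livers with against without a tumor had an adjusted p of 0.078.

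Directions turned for differences of members that were not called in any of these settings. For tumor-bearing KO against WT livers the value was 0.0044 for Nfe2l2 and 0.0072 for Gclm with quantile normalization, 0.17 for Nfe2l2, 0.030 for Nqo1 and 0.054 for Gclm with weights and 0.14 for Nfe2l2 and 0.072 for Gclm without both libraries that stood apart. Nfe2l2 ran there from -0.18 to 0.22 with 1 library left out, Gclc from -0.47 to 0.10, Gclm from -0.22 to 0.14, Srxn1 from -0.25 to 0.32. For tumor-free KO against WT livers the value was -0.055 for Srxn1 with weights and -0.0042 for Hmox1 and -0.15 for Srxn1 without both libraries that stood apart. Gclc ran there from -0.54 to 0.13 with 1 library left out, Hmox1 from -0.0042 to 0.60, Txnrd1 from -0.073 to 0.35, Srxn1 from -0.15 to 0.59. For WT livers with against without a tumor the value was 0.074 for Nfe2l2 and 0.060 for Txnrd1 with quantile normalization and -0.36 for Nqo1 with weights. Nfe2l2 ran there from -0.30 to 0.066 with 1 library left out, Keap1 from -0.25 to 0.59, Nqo1 from -0.31 to 0.50, Gclc from -0.55 to 0.17, Txnrd1 from -0.26 to 0.085, Osgin1 from -0.87 to 0.72. For KO livers with against without a tumor the value was 0.076 for Gclc and 0.019 for Gclm with quantile normalization and -0.15 for Hmox1 and -0.0076 for Srxn1 with weights. Nfe2l2 ran there from -0.12 to 0.20 with 1 library left out, Gclc from -0.44 to 0.029, Hmox1 from -0.22 to 0.38, Srxn1 from -0.081 to 0.72. For KO against WT averaged the value was 0.00060 for Nqo1 with a pseudocount of 10, 0.057 for Nfe2l2, 0.29 for Nqo1 and -0.19 for Srxn1 with weights and 0.055 for Nfe2l2, 0.17 for Nqo1 and -0.20 for Srxn1 without both libraries that stood apart. Nfe2l2 ran there from -0.15 to 0.051 with 1 library left out, Nqo1 from -0.32 to 0.37, Hmox1 from -0.22 to 0.084, Srxn1 from -0.085 to 0.28. For tumor against no tumor averaged the value was 0.058 for Nfe2l2 rescaled to the same total, 0.13 for Nfe2l2 and 0.023 for Gclc with quantile normalization, 0.023 for Nfe2l2 over protein-coding genes, -0.019 for Txnrd1 and -0.22 for Osgin1 with weights and 0.024 for Nfe2l2 without both libraries that stood apart. Nfe2l2 ran there from -0.13 to 0.067 with 1 library left out, Gclc from -0.35 to 0.0043, Osgin1 from -0.061 to 0.73. For the interaction the value was 0.0090 for Gclc rescaled to the same total, 0.11 for Gclc with quantile normalization, 0.13 for Gclc with weights and -0.045 for Keap1 and 0.069 for Gclc without both libraries that stood apart. Nfe2l2 ran there from -0.061 to 0.34 with 1 library left out, Keap1 from -0.10 to 0.74, Gclc from -0.33 to 0.38, Gclm from -0.060 to 0.37, Srxn1 from -0.61 to 0.19, Gsr from -0.079 to 0.19. The depth of KO tumor replicate 1, at 12700000 reads, enters each comparison that uses tumor-bearing KO livers, and its part in them was not tested.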
